A study of Mus musculus with 11 samples.

Results

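Transcripts of 38 genes that burn fatty acids, make and use ketone bodies, or carry out and answer to PPAR signalling were examined in the colon of young mice. The genes were taken by name from a table of 35683 genes in all, and for each the values of its distinct transcripts were added. Poly(A) RNA from the full thickness of the colon was sequenced in 11 mice aged 2 weeks, which is before weaning. The comparison was between 6 mice with the genotype Tnfr1-/-, which lack the TNF receptor TNFR1 (gene Tnfrsf1a), and 5 WT mice, and it asks what loss of the receptor does in early life. Nothing else separates the groups in the labels, which name no treatment, no cell-type restriction of the deletion, and no sex, litter, cage or batch. Values are TPM, an abundance per unit of transcript length, rescaled by the size factor of the library. Levels are given below as abundance and can be set side by side between transcripts. In the sum of a gene, a short transcript weighs more than its reads would. The order of genes below is therefore an order of such sums, not of protein-coding RNA.

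Mitochondrial β-oxidation shortens a fatty acid by cycles of dehydrogenation, hydration, a further dehydrogenation and cleavage. It starts with activation to an acyl-CoA and transfer across the mitochondrial membranes on carnitine, and its electrons reach the respiratory chain through the electron transfer flavoprotein. The acetyl-CoA it yields can be burned in the citric acid cycle or joined into ketone bodies, which other cells turn back into acetyl-CoA. PPARα, PPARγ and PPARδ are nuclear receptors for fatty acids that switch on many of these genes, and the colonic epithelium is known for taking much of its energy from short-chain fatty acids and for high PPARγ.

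No gene of the group passed the test across all genes. Of the 38 genes, 37 were expressed highly enough to be tested, an abundance of at least 1 in at least 5 libraries, and Fabp1 was the exception. The smallest adjusted p among them was 0.314, for Decr1 (limma with Benjamini-Hochberg adjustment over 15079 genes). Among all genes tested, 1 passed at an adjusted p under 0.05, which is 0.00663%. That gene was Tnfrsf1a itself.

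Small differences in the same direction were common among the enzymes and carriers, of which 22 of 28 had a lower mean in Tnfr1-/- colons, with a median log2 fold change of -0.11. Among cell type markers, 11 of 12 colonocyte genes had lower means in Tnfr1-/- colons (median -0.14, 1 at an unadjusted limma p under 0.05), as did 8 of 10 tested small intestinal enterocyte genes (median -0.16, 1 at that threshold) and 7 of 8 macrophage genes (median -0.18, 0 at that threshold). Higher means were found for 8 of 9 tested adipocyte genes (median 0.29), 10 of 10 skeletal muscle genes (median 0.82) and 7 of 8 smooth muscle genes (median 0.08). So too for 6 of 8 endothelial genes (median 0.04), with 0 at that threshold in each of these lists. Of 3 tested hepatocyte genes 2 were higher (median 0.04, 1 at that threshold). The part of any of these cells in the shift was not tested beyond leaving out libraries. Leaving out WT replicates 1 and 2, the libraries with most colonocyte RNA, gave a median of -0.06 over the 37 tested genes of the group. That median was -0.077 without Tnfr1-/- replicates 2 and 5 and WT replicate 5, and -0.082 without Tnfr1-/- replicates 4 and 6. With each library left out in turn it ran from -0.135 to -0.084. At an unadjusted limma p under 0.05, 9 of the 37 genes were lower in Tnfr1-/- colons, where 5.17% of all tested genes were, and 3 were higher, where 4.2% of all were. The 12 together are 32.4% of the genes tested, beside 9.37% of all genes at the same threshold. Those that were lower are Decr1, Etfb, Acads, Bdh1, Cpt2, Pparg, Ech1, Acadvl and Acat1, and those that were higher are Ppargc1a, Acsl1 and Angptl4. Over 23 other settings of the analysis Decr1 and Acads were under that threshold in all 23, Acsl1 and Acadvl in 12 each and Acat1 in 9, and Angptl4 was under it in 6 of the 22 in which it could be fitted. A log2 fold change (Tnfr1-/- over WT) below 0 was found for 26 of the 37, or 70.3%, beside 52.1% of all tested genes, and the median was -0.11, beside -0.0061 over all tested genes. The size of these differences was small: the largest of either sign was 0.47, for Pdk4, which was 0.27 without WT replicate 2. In RNA from a whole organ, fewer cells of a type and less RNA per cell cannot be told apart. Genes of the group also varied together between libraries: Slc25a20, Acadl, Etfa, Acsl5, Fabp2 and Ppard were each highest in WT replicates 1 and 2. The counts in this paragraph are therefore not counts of independent genes, and the group was not tested as a set.

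The number of genes under that threshold depended on which libraries were kept. Without Tnfr1-/- replicates 2 and 5 and WT replicate 5, the libraries with most skeletal muscle RNA, 5 of the 37 were at an unadjusted limma p under 0.05, or 13.5%, beside 7.15% of all genes. Without Tnfr1-/- replicates 4 and 6 it was 7, or 18.9%, beside 6.94% of all genes, and without WT replicates 1 and 2 it was 9, or 24.3%, beside 16.5%. These 3 subsets were chosen after the data were seen.

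**Figure D1:**
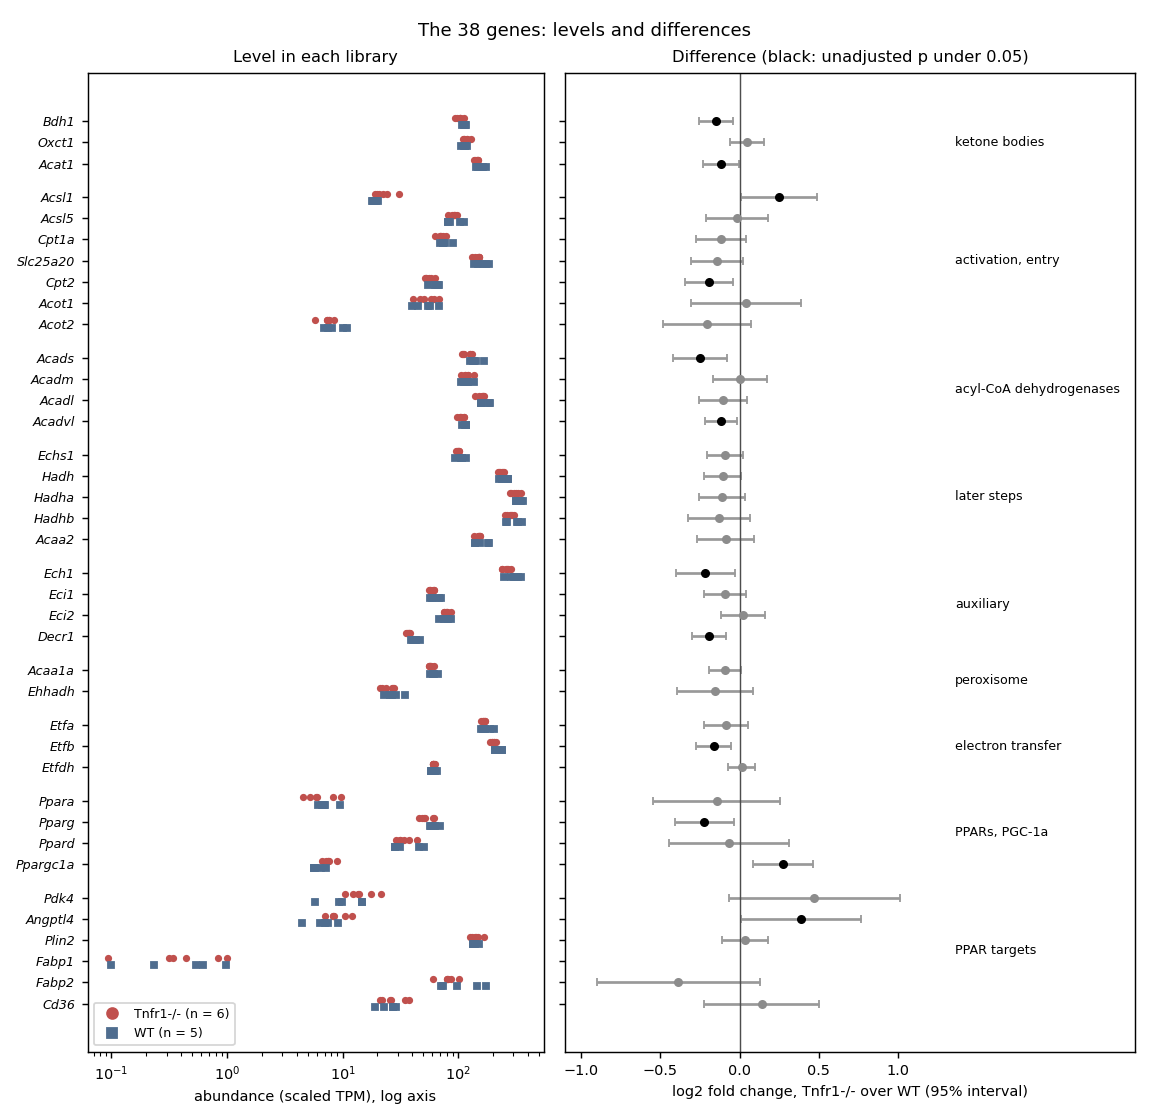
Left, abundance (TPM scaled by a size factor, log axis) of the 38 genes in each of 6 Tnfr1-/- libraries (circles) and 5 WT libraries (squares). Right, log2 fold change, Tnfr1-/- over WT, with its 95% interval from limma for the 37 tested genes, black where the unadjusted p was under 0.05: most points lie left of 0, and for 34 genes the whole interval lies inside a 1.5-fold change either way.

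The libraries were deep for these genes. Estimated depth was 29.0 to 44.2 M reads, and every tested gene of the group had at least 188 estimated reads in every library, the 28 enzymes and carriers at least 295. Within 95% intervals, no enzyme or carrier of the 28 reached a 1.5-fold difference either way, and 36 of the 37 genes did not reach 2-fold. Tnfrsf1a had 22.4 ± 3.54 in Tnfr1-/- colons (SD, n = 6) and 67.1 ± 5.04 in WT colons (SD, n = 5), so RNA of the locus fell but was still present in every Tnfr1-/- mouse. The colonocyte genes Lgals4, Krt8 and Car1 were abundant in all 11 libraries, which are labelled colon. Of 8 hepatocyte genes, Alb, Serpina1a, Fgb and Ahsg were below 1 in every library. The labels do not say how the mice were related, so the p-values measure only the spread between these mice.

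Of the 3 ketone body genes, Bdh1 and Acat1 were lower at an unadjusted p under 0.05. Bdh1 encodes the 3-hydroxybutyrate dehydrogenase that interconverts the main ketone bodies (GRCm38 chromosome 16, 31422280 to 31458901). In Tnfr1-/- colons the lowest, median and highest abundances of Bdh1 were 93.9, 103 and 113, against 118, 107, 115, 114 and 113 in WT replicates 1 to 5. In 5 of 6 Tnfr1-/- libraries Bdh1 lay below every WT library, and replicate 3, at 113, lay within the WT range. Its log2 fold change came to -0.15 ± 0.05 (SE, limma adjusted p = 0.404). Acat1, the mitochondrial acetoacetyl-CoA thiolase that works in both ketone synthesis and ketone use (chromosome 9, 53580522 to 53610382), had 138, 146 and 149 as lowest, median and highest in Tnfr1-/- colons and 173, 160.5, 163, 149 and 143 in WT colons. The groups overlapped, with WT replicates 1, 2 and 3 above every Tnfr1-/- library, and the log2 fold change came to -0.12 ± 0.05 (SE, limma adjusted p = 0.519). Of the summed abundance of Acat1, 49.7% belonged to a non-coding transcript of 500 bases with 8.48% of the gene's estimated reads and a log2 fold change of -0.19, and the coding transcript with 91.5% of the reads had -0.05. On estimated reads summed per gene the value was -0.05 and no longer at an unadjusted p under 0.05. Oxct1, the enzyme that commits ketone bodies to use outside the liver (chromosome 15, 4026383 to 4155344), ran the other way in its mean. It had 111, 116 and 129 in Tnfr1-/- colons (lowest, median, highest) and 119, 111, 116, 114 and 106 in WT colons, with a log2 fold change of 0.05 (95% interval -0.06 to 0.16).

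The ratio of Bdh1 to Oxct1 within a library hardly depends on how that library was scaled. On the log2 scale it was -0.12, -0.24, 0.01, -0.20, -0.39 and -0.23 in Tnfr1-/- replicates 1 to 6, against -0.01, -0.05, -0.0021, 0.0025 and 0.08 in WT replicates 1 to 5. The ratio was below every WT library in 5 of 6 Tnfr1-/- mice and inside the WT range in replicate 3. The group means differed by -0.19 (exact permutation test over all 462 splits, two-sided, p = 0.0173, adjusted p = 0.0693 over the 4 ratios tested), and no split of 6 and 5 libraries can give a p below 0.00216. It therefore did not pass after adjustment, and without Tnfr1-/- replicates 2 and 5 and WT replicate 5 the difference was -0.11.

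**Figure D2:**
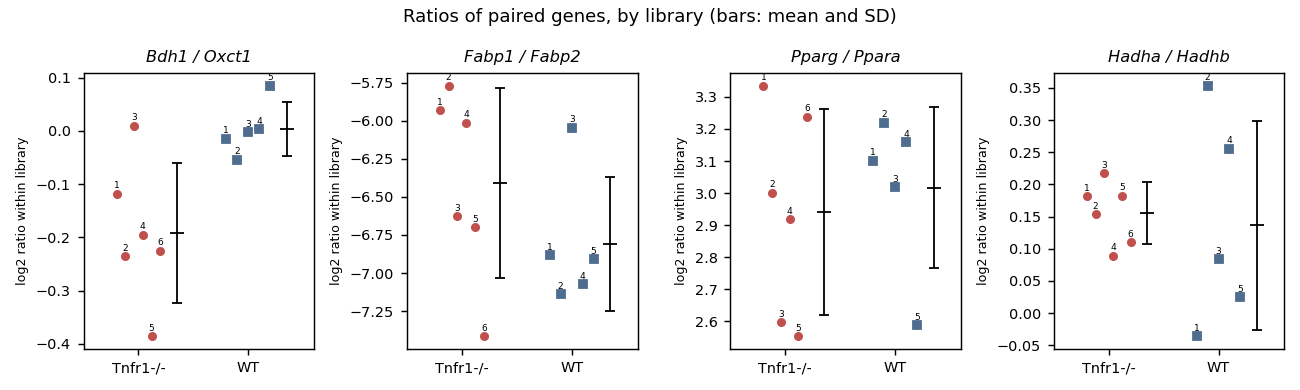
Log2 ratio of paired genes within each library (0.5 added to each value), for 6 Tnfr1-/- libraries (circles) and 5 WT libraries (squares), numbered by replicate, with the mean and SD beside each group. The Bdh1 to Oxct1 ratio was below all WT libraries in Tnfr1-/- replicates 1, 2, 4, 5 and 6, whereas the groups overlap throughout in the other 3 panels.

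Of 7 genes for activation and entry, Cpt2 was lower and Acsl1 higher at an unadjusted p under 0.05. Cpt2, the inner membrane carnitine palmitoyltransferase that returns acyl groups to CoA (chromosome 4, 107903981 to 107923610), had 51.9, 54.7 and 63.4 in Tnfr1-/- colons (lowest, median, highest) and 68.8, 63.5, 64.8, 55.0 and 67.4 in WT colons. All WT libraries but replicate 4 lay above all Tnfr1-/- libraries, and its log2 fold change came to -0.19 ± 0.07 (SE, limma adjusted p = 0.449). A coding transcript of 1015 bases made up 19.4% of the Cpt2 sum on 8.55% of its estimated reads, with a log2 fold change of -0.55. The coding transcript with 90.5% of the reads had -0.13, and there WT replicates 3 and 4 lay inside the Tnfr1-/- range. On estimated reads summed per gene, Cpt2 had -0.15 and stayed at an unadjusted limma p under 0.05. Acsl1, a long-chain acyl-CoA synthetase abundant in muscle and fat (chromosome 8, 46471037 to 46536051), had 19.0, 21.6 and 30.8 in Tnfr1-/- colons (lowest, median, highest) and 17.9, 18.6, 19.4, 18.3 and 20.2 in WT colons, a log2 fold change of 0.25 (SE 0.11, limma adjusted p = 0.52). Its highest value was in Tnfr1-/- replicate 2, which also held the most skeletal muscle RNA, and its log2 fold change was 0.16 without that library. It was 0.21 without Tnfr1-/- replicates 2 and 5 and WT replicate 5, 0.22 without Tnfr1-/- replicates 4 and 6, and 0.22 without WT replicates 1 and 2, the last 2 values not at an unadjusted p under 0.05.

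The other entry genes overlapped between groups. Cpt1a, the outer membrane palmitoyltransferase that limits the rate of long-chain entry, ranged over 62.7 to 77.9 in Tnfr1-/- and 69.3 to 89.9 in WT colons (log2 fold change -0.12, 95% interval -0.27 to 0.04). Slc25a20, the carnitine-acylcarnitine carrier, ranged over 132 to 152 in Tnfr1-/- and 138 to 185 in WT colons, with a log2 fold change of -0.14. Acsl5, the acyl-CoA synthetase of the intestinal epithelium, was level in its means, at 90.9 ± 5.35 in Tnfr1-/- (SD, n = 6) and 92.8 ± 14.2 in WT colons (SD, n = 5). WT replicates 1 and 2 were its highest libraries, and without them its log2 fold change was 0.13. The cytosolic acyl-CoA thioesterase Acot1 ranged over 40.5 to 68.3 in Tnfr1-/- and 40.0 to 68.1 in WT colons. Acot2, its mitochondrial relative, ranged over 5.81 to 8.46 in Tnfr1-/- and 6.86 to 11.0 in WT colons. The sums of Acot1 and Acot2 are not alike in make-up. For Acot1, 51.0% belonged to a transcript of 622 bases and 44.6% to a non-coding one of 801 bases. Its coding transcript of 2272 bases held 3.84%, with means of 2.01 in Tnfr1-/- and 2.13 in WT colons. All of the Acot2 sum belonged to a coding transcript of 2196 bases. Transcripts of Acot1 and Acot2 share 15.0% and 21.2% of their 75-base windows with other genes of the Acot family, so the split of reads among those genes is uncertain.

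Among the 4 acyl-CoA dehydrogenases, each of which takes a different chain length through the first step of a cycle, the short-chain and very-long-chain enzymes were lower at an unadjusted p under 0.05. Acads, for short chains such as butyryl-CoA (chromosome 5, 115110299 to 115119346), had 109, 119 and 133 in Tnfr1-/- colons (lowest, median, highest) and 136, 168, 139, 127 and 144 in WT colons. In 4 of 6 Tnfr1-/- libraries it lay below every WT library, and WT replicate 2 was the highest of all. Its log2 fold change of -0.25 was the most negative among the enzymes (SE 0.08, limma adjusted p = 0.398). Acadvl, for very long chains (chromosome 11, 70010183 to 70015411), had 97.4, 105 and 112 in Tnfr1-/- colons (lowest, median, highest) and 117, 118, 114, 108 and 118 in WT colons. There too 4 of 6 Tnfr1-/- libraries lay below every WT library (log2 fold change -0.12, SE 0.05, limma adjusted p = 0.482). The medium-chain enzyme Acadm gave 119 ± 11.1 in Tnfr1-/- (SD, n = 6) and 119 ± 11.3 in WT colons (SD, n = 5), and the 95% interval of its log2 fold change was -0.17 to 0.17. The long-chain enzyme Acadl gave 158 ± 10.6 in Tnfr1-/- (SD, n = 6) and 170.1 ± 16.1 in WT colons (SD, n = 5), with an interval of -0.26 to 0.04.

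**Figure D3:**
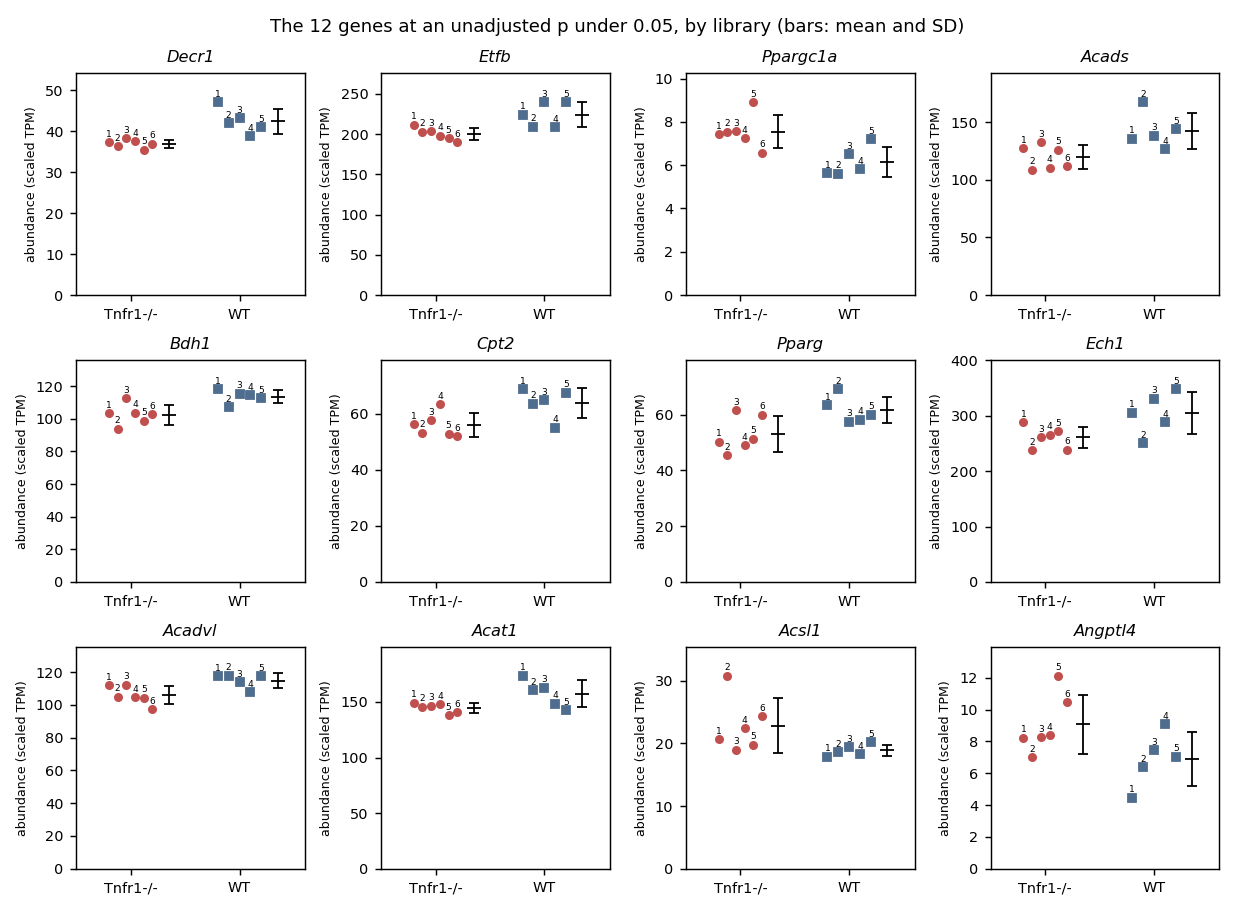
Abundance (scaled TPM) of the 12 genes at an unadjusted p under 0.05 in 6 Tnfr1-/- libraries (circles) and 5 WT libraries (squares), numbered by replicate, with the mean and SD beside each group. Decr1 is the gene whose groups do not overlap, and Acsl1 is highest in Tnfr1-/- replicate 2.

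The 5 genes of the later steps of a cycle include the most abundant of the 38. All 5 had lower means in Tnfr1-/- colons, with none at an unadjusted p under 0.05. The highest was Hadha, the hydratase and dehydrogenase subunit of the trifunctional protein, at 311 ± 27.1 in Tnfr1-/- (SD, n = 6) and 336 ± 21.2 in WT colons (SD, n = 5). Its partner Hadhb, the thiolase subunit, was second, at 279 ± 17.9 in Tnfr1-/- (SD, n = 6) and 308 ± 43.7 in WT colons (SD, n = 5), so neighbours in this order did not differ beyond their spread in WT colons. Echs1, the short-chain enoyl-CoA hydratase, ranged over 95.7 to 102 in Tnfr1-/- and 93.2 to 116 in WT colons. Hadh, the short-chain 3-hydroxyacyl-CoA dehydrogenase, ranged over 223 to 247 in Tnfr1-/- and 227 to 270.4 in WT colons. Acaa2, the mitochondrial 3-ketoacyl-CoA thiolase, ranged over 136 to 156 in Tnfr1-/- and 139 to 184 in WT colons. The log2 fold changes of the 5 genes lay between -0.13 and -0.09, and all 5 intervals included 0.

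Hadha (chromosome 5, 30118304 to 30155162, minus strand) and Hadhb (chromosome 5, 30155248 to 30184593, plus strand) lie head to head, and their RefSeq start sites are 273 bases apart. Their promoter windows, 250 bases before to 50 after each start, overlap by 228 bases. The Hadhb window is shown because those 228 bases lie upstream of or at the start of both genes, with each GC box (GGGCGG on either strand) in capitals; it holds no TATAAA on either strand. From RefSeq on GRCm38.p6, plus strand, chr5:30155003-30155302:
Hadhb: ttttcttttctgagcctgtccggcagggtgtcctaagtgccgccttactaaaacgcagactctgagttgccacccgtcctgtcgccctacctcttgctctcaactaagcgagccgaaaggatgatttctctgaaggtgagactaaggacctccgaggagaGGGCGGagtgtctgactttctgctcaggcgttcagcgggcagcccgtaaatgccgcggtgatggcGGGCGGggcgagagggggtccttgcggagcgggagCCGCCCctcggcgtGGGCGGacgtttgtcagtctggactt
The log2 ratio of Hadha to Hadhb was 0.18, 0.15, 0.22, 0.09, 0.18 and 0.11 in Tnfr1-/- replicates 1 to 6, against -0.04, 0.35, 0.08, 0.26 and 0.02 in WT replicates 1 to 5. The Tnfr1-/- values lay inside the WT range, and the means differed by 0.02 (exact permutation test, two-sided, p = 0.792, adjusted p = 0.792). Of the summed abundance of Hadha, 44.0% belonged to the non-coding transcript ENSMUST00000132486.1 of 323 bases, which held 4.16% of the gene's estimated reads. A short transcript weighs more in an abundance than in reads, so the sums of Hadha and Hadhb are not levels of protein-coding RNA, and 16.7% of the 75-base windows of Hadhb also occur in other genes.

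Of the 4 auxiliary enzymes, which prepare unsaturated fatty acids for the cycle, Decr1 and Ech1 were lower at an unadjusted p under 0.05. Decr1, the mitochondrial 2,4-dienoyl-CoA reductase (chromosome 4, 15917240 to 15945507), had 35.5, 37.2 and 38.2 in Tnfr1-/- colons (lowest, median, highest) and 47.1, 42.0, 43.2, 38.8 and 41.0 in WT colons. Every Tnfr1-/- library lay below every WT library, although the closest pair, Tnfr1-/- replicate 3 at 38.2 and WT replicate 4 at 38.8, nearly met. Decr1 was the 1 gene of the 37 whose groups did not overlap, as was the case for 1.49% of all tested genes, and its log2 fold change came to -0.19 ± 0.05 (SE, limma adjusted p = 0.314). It stayed at an unadjusted limma p under 0.05 in each of the 3 subsets of libraries above, with log2 fold changes of -0.18, -0.20 and -0.15.

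Ech1, a dienoyl-CoA isomerase (chromosome 7, 28825217 to 28832247), was next in summed abundance after Hadha and Hadhb, with 238, 264 and 288 in Tnfr1-/- colons (lowest, median, highest) and 305, 251, 331, 288 and 348 in WT colons. WT replicates 2 and 4 lay inside the Tnfr1-/- range, and the log2 fold change came to -0.22 ± 0.08 (SE, limma adjusted p = 0.475). Of the summed abundance of Ech1, 18.5% belonged to a non-coding transcript of 422 bases with 5.03% of the estimated reads and a log2 fold change of -0.45. The coding transcript with 85.1% of the reads had -0.13. Its means, 175 in Tnfr1-/- and 191 in WT colons, were below those of the Hadh coding transcript, 235 and 253. The place of Ech1 in the order thus holds for the sum only. Estimated reads of Ech1 summed per gene gave -0.15, still at an unadjusted limma p under 0.05. The enoyl-CoA isomerase Eci1 ranged over 55.7 to 61.6 in Tnfr1-/- and 57.2 to 71.0 in WT colons. Its relative Eci2 ranged over 75.2 to 86.8 in Tnfr1-/- and 68.3 to 87.4 in WT colons, with a log2 fold change of 0.02. Both pairs of ranges overlapped.

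Electrons from the acyl-CoA dehydrogenases pass through the flavoprotein subunits encoded by Etfa and Etfb to the ubiquinone oxidoreductase encoded by Etfdh. Etfb (chromosome 7, 43444083 to 43457800) had 189.7, 200.2 and 211 in Tnfr1-/- colons (lowest, median, highest) and 224, 209, 239, 208 and 239.6 in WT colons. In 5 of 6 Tnfr1-/- libraries it lay below every WT library, and its log2 fold change came to -0.16 ± 0.05 (SE, limma adjusted p = 0.398). Of its 75-base windows 39.6% also occur in the predicted gene Gm45233, so the split of reads between them is uncertain. Etfa, the partner subunit, ranged over 159 to 172 in Tnfr1-/- and 157 to 205 in WT colons, and its log2 fold change of -0.09 turned to 0.01 without WT replicates 1 and 2. Etfdh had the smallest spread within groups of all 37 tested genes, with 60.2, 60.9 and 62.6 in Tnfr1-/- colons (lowest, median, highest) and 65.0, 63.1, 58.8, 57.9 and 58.9 in WT colons, and a log2 fold change of 0.01 (95% interval -0.08 to 0.10).

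The 2 peroxisomal enzymes had lower means in Tnfr1-/- colons, and neither was at an unadjusted p under 0.05. Acaa1a, a peroxisomal 3-ketoacyl-CoA thiolase, ranged over 55.8 to 62.0 in Tnfr1-/- and 57.6 to 67.0 in WT colons (log2 fold change -0.09). Ehhadh, the peroxisomal bifunctional enzyme, ranged over 21.3 to 28.1 in Tnfr1-/- and 22.8 to 34.4 in WT colons (log2 fold change -0.15). The ranges overlapped in both cases, and Acaa1a shares 9.5% of its windows with its near copy Acaa1b.

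Among the receptors, PPARγ was the most abundant at the RNA level and had the lower mean in Tnfr1-/- colons. Pparg (chromosome 6, 115360951 to 115490399) had 45.5, 50.8 and 61.6 in Tnfr1-/- colons (lowest, median, highest) and 63.4, 69.2, 57.5, 58.2 and 60.0 in WT colons. In Tnfr1-/- replicates 1, 2, 4 and 5 it lay below every WT library, whereas replicates 3 and 6 lay inside the WT range. Its log2 fold change came to -0.22 ± 0.08 (SE, limma adjusted p = 0.472). Pparg lies 9.86 Mb from the deleted locus, Tnfrsf1a, on the same chromosome.

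Pparg is transcribed from alternative start sites, and the transcripts of each gave a separate level. The first site carried 16.7% of the gene's abundance, at 9.27 ± 1.21 in Tnfr1-/- colons (SD, n = 6) and 9.80 ± 2.13 in WT colons (SD, n = 5). The second carried 55.4%, at 28.9 ± 7.28 in Tnfr1-/- colons (SD, n = 6) and 34.7 ± 4.79 in WT colons (SD, n = 5). The third carried 27.4%, at 14.5 ± 4.25 in Tnfr1-/- colons (SD, n = 6) and 16.99 ± 2.69 in WT colons (SD, n = 5). All 3 means were lower in Tnfr1-/- colons by less than the SD of at least 1 group, and the order of the sites was the same in both groups. The windows of the second and the third site are shown because they carry most of the RNA and differ in composition: capitals mark GC boxes, TATAAA and the hexamer AGGTCA, on either strand. From RefSeq on GRCm38.p6, plus strand, they lie at chr6:115362099-115362398 and chr6:115421816-115422115:
Pparg site 2: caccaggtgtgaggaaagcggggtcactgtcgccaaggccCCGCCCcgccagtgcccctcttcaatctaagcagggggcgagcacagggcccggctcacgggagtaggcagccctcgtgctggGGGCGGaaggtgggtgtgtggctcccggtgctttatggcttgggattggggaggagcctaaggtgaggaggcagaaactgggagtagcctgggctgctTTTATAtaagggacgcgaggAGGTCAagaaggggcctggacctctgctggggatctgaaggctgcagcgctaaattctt
Pparg site 3: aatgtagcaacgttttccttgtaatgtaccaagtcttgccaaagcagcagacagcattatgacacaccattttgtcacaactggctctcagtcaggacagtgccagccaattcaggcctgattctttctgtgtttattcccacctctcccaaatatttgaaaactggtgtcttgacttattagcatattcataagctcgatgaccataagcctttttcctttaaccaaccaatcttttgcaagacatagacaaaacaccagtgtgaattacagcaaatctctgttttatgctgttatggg
The second window has a GC content of 62.7% and 13 CpG, and the third has 40.3% and 2 CpG and none of those motifs.

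Ppara, the receptor most active in fasting liver (chromosome 15, 85734983 to 85802819), was low in the colon, with 4.53, 5.99 and 9.77 in Tnfr1-/- colons (lowest, median, highest) and 6.95, 6.98, 6.65, 6.07 and 9.57 in WT colons. Its log2 fold change was -0.15 (95% interval -0.55 to 0.26), and its highest WT value was in replicate 5. Of its summed abundance, 14.0% belonged to a non-coding transcript of 360 bases with 0.804% of the gene's estimated reads. The coding transcript with 98.1% of the reads had a log2 fold change of 0.06, and estimated reads summed per gene gave 0.05. The ratio of Pparg to Ppara below uses the summed abundance. Ppard, the receptor found in most tissues (chromosome 17, 28232700 to 28301474), ranged over 28.8 to 44.0 in Tnfr1-/- and 28.2 to 51.0 in WT colons, with WT replicates 1 and 2 highest. The log2 ratio of Pparg to Ppara was 3.33, 3.00, 2.60, 2.92, 2.55 and 3.24 in Tnfr1-/- replicates 1 to 6, against 3.10, 3.22, 3.02, 3.16 and 2.59 in WT replicates 1 to 5. These ratios overlapped throughout, and the means differed by -0.08 (exact permutation test, two-sided, p = 0.684, adjusted p = 0.792).

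Ppargc1a, which encodes the coactivator PGC-1α of mitochondrial genes (chromosome 5, 51454250 to 51567726), was higher at an unadjusted p under 0.05. It had 6.57, 7.48 and 8.91 in Tnfr1-/- colons (lowest, median, highest) and 5.64, 5.62, 6.50, 5.80 and 7.20 in WT colons. In 5 of 6 Tnfr1-/- libraries it lay above every WT library, and replicate 6 lay inside the WT range. The log2 fold change came to 0.28 ± 0.09 (SE, limma adjusted p = 0.398). Replicate 5 was the highest library of each group and was among the libraries richest in skeletal muscle RNA. Without Tnfr1-/- replicates 2 and 5 and WT replicate 5 the log2 fold change was 0.27, and without WT replicates 1 and 2 it was 0.20.

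Of 6 PPAR target genes, 5 were tested, and 4 of these had higher means in Tnfr1-/- colons. Angptl4, a secreted inhibitor of lipoprotein lipase induced by fatty acids (chromosome 17, 33773750 to 33781830), had 6.99, 8.32 and 12.1 in Tnfr1-/- colons (lowest, median, highest) and 4.45, 6.38, 7.46, 9.07 and 7.04 in WT colons. The groups overlapped, with Tnfr1-/- replicates 5 and 6 above every WT library and WT replicate 1 lowest (log2 fold change 0.39, SE 0.17, limma adjusted p = 0.526). Without WT replicate 1 the log2 fold change of Angptl4 was 0.25, and without WT replicates 1 and 2 it was 0.18. Of its abundance 88.2% was assigned to ENSMUST00000173869.7, a transcript annotated for nonsense-mediated decay. Pdk4, the kinase that turns pyruvate dehydrogenase off when fat is burned (chromosome 6, 5483351 to 5496309), had the largest spread within groups among the 37 tested genes. It had 10.5, 13.9 and 21.6 in Tnfr1-/- colons (lowest, median, highest) and 9.98, 5.74, 14.8, 9.28 and 14.8 in WT colons, and its log2 fold change of 0.47 was the largest of the group (SE 0.24, limma adjusted p = 0.591). Its 2 highest libraries were Tnfr1-/- replicates 5 and 2, and its lowest was WT replicate 2. The log2 fold change of Pdk4 was 0.27 without WT replicate 2 and 0.19 without WT replicates 1 and 2.

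Plin2, a coat protein of lipid droplets, was the most abundant PPAR target, at 127 to 167 in Tnfr1-/- and 134 to 151 in WT colons (log2 fold change 0.03, 95% interval -0.11 to 0.18). Cd36, a fatty acid translocase of muscle, fat and endothelium, ranged over 20.9 to 37.5 in Tnfr1-/- and 19.0 to 29.1 in WT colons (log2 fold change 0.14). It was highest in Tnfr1-/- replicate 6, where the adipocyte markers also summed highest, and in Tnfr1-/- replicate 2, where the skeletal muscle markers did.

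The fatty acid binding proteins of the intestinal epithelium, Fabp1 (the liver type, chromosome 6, 71199827 to 71205023) and Fabp2 (the intestinal type, chromosome 3, 122895072 to 122899506), stood far apart in level. Fabp1 ranged over 0.0939 to 1.00 in Tnfr1-/- and 0.0985 to 0.989 in WT colons, on 1 to 9 estimated reads per library, and was too low to test. Fabp2 had 60.2, 81.2 and 101 in Tnfr1-/- colons (lowest, median, highest) and 175, 146, 73.3, 98.4 and 71.3 in WT colons. WT replicates 1 and 2 were far above the rest and the other 3 lay within the Tnfr1-/- range, so the log2 fold change of -0.39 became 0.01 without them. The log2 ratio of Fabp1 to Fabp2 was -5.93, -5.77, -6.63, -6.01, -6.70 and -7.41 in Tnfr1-/- replicates 1 to 6, against -6.88, -7.14, -6.05, -7.07 and -6.91 in WT replicates 1 to 5. The groups overlapped, with a difference of 0.40 (exact permutation test, two-sided, p = 0.264, adjusted p = 0.528). With so few reads of Fabp1 the ratio rests on counting error as well. Each value had 0.5 added before the ratio was taken. That constant is large beside Fabp1 at 0.0939 to 1.00, so these are not plain ratios of the genes.

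The promoter windows of both genes are shown because the motif of a PPAR and RXR pair, the direct repeat AGGNCANAGGNCA, was found in that of Fabp1, the gene near 0 here, and in no other window of the group. Capitals mark that repeat, which holds an AGGTCA on the minus strand, a further AGGTCA and the TATAAA. From RefSeq on GRCm38.p6, plus strand, Fabp1 lies at chr6:71199629-71199928 and Fabp2 at chr3:122894822-122895121:
Fabp1: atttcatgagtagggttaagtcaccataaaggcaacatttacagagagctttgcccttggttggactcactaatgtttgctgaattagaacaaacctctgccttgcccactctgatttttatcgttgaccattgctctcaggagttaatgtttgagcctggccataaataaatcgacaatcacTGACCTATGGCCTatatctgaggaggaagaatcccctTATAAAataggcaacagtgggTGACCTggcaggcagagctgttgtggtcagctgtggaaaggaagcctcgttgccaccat
Fabp2: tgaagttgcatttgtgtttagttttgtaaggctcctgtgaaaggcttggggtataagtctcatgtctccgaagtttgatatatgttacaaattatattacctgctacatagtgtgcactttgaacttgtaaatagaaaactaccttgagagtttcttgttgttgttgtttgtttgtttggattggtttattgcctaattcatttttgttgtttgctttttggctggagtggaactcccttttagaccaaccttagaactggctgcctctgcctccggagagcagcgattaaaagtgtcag
The repeat begins 67 bases before the Fabp1 start and the TATAAA begins 30 bases before it, and the Fabp2 window holds none of the marked motifs. RefSeq windows were found for 34 of the 38 genes, 38 windows in all, and both strands were searched. The repeat was in 2.63% of these, beside 0.381% of 32851 windows of all genes. AGGTCA was in 23.7%, beside 16.3% of all, and TATAAA in 5.26%, beside 13.6%. The GC box GGGCGG was in 65.8% of the windows, beside 35.7% of all, and the E box CACGTG in 2.63%, beside 7.15%. The median window of the group held 14 CpG, beside 7 over all windows. These are descriptions of letters in short windows and say nothing of binding.

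**Figure D4:**
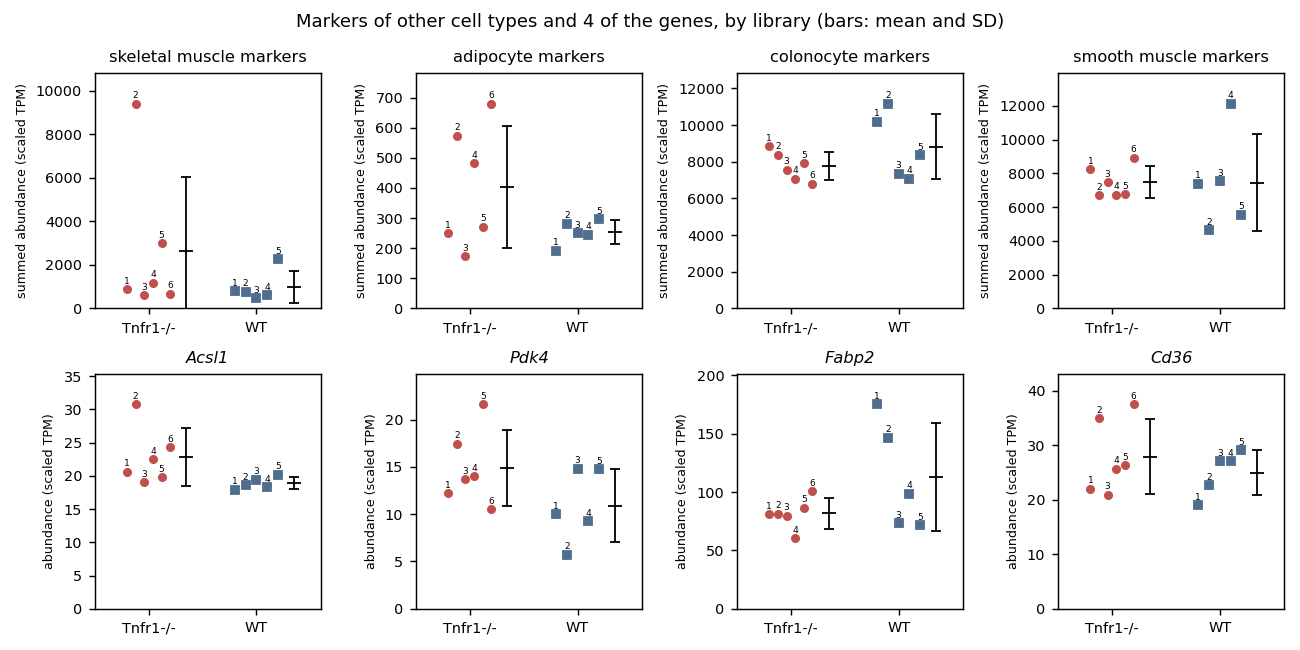
Top, summed abundance (scaled TPM) of markers of skeletal muscle, adipocytes, colonocytes and smooth muscle in 6 Tnfr1-/- libraries (circles) and 5 WT libraries (squares), numbered by replicate, with the mean and SD. Bottom, Acsl1, Pdk4, Fabp2 and Cd36 in the same libraries: Acsl1 is highest in Tnfr1-/- replicate 2, the library with most skeletal muscle RNA, and Fabp2 in WT replicates 1 and 2, those with most colonocyte RNA.

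Markers of other cell types varied between libraries. The 10 skeletal muscle genes, among them Acta1, Mylpf and Ckm, summed to 603 to 9398 in Tnfr1-/- libraries and 467 to 2261 in WT libraries, with Tnfr1-/- replicates 2 and 5 and WT replicate 5 highest. The 10 had higher means in Tnfr1-/- colons and 0 were at an unadjusted p under 0.05. Among them Pvalb was at 0 in Tnfr1-/- replicate 3 alone. The 10 adipocyte genes, among them Fabp4, Car3 and Cfd, summed to 173 to 679 in Tnfr1-/- libraries and 192 to 296 in WT libraries, with Lep below 1 throughout. Tnfr1-/- replicates 6 and 4 were highest in Fabp4 and Cfd. The sum of 573 in Tnfr1-/- replicate 2 held 382 of Car3, a carbonic anhydrase that skeletal muscle also makes, and its Cfd, at 18.6, lay within the WT range. Skeletal muscle and fat markers thus varied more among the Tnfr1-/- than among the WT libraries, which was not so for smooth muscle markers. The 12 colonocyte genes summed to 6800 to 8842 in Tnfr1-/- libraries and 7084 to 11157 in WT libraries, with WT replicates 1 and 2 highest, and 11 of the 12 had lower means in Tnfr1-/- colons. Car1, at 1017 ± 209 in Tnfr1-/- (SD, n = 6) and 1418 ± 368 in WT colons (SD, n = 5), was the 1 of them at an unadjusted p under 0.05. The 12 small intestinal enterocyte genes summed to only 151 to 207 in Tnfr1-/- libraries and 175 to 271 in WT libraries, with Lct and Gata4 below 1 throughout. The 8 hepatocyte genes summed to 42.1 to 55.8 in Tnfr1-/- libraries and 36.5 to 49.2 in WT libraries, most of it from Ttr. Both sums lay far below the colonocyte sum in every library. The 8 smooth muscle genes summed to 6688 to 8934 in Tnfr1-/- libraries and 4645 to 12110 in WT libraries. Endothelial markers, 8 genes, summed to 105 to 131 in Tnfr1-/- libraries and 92.9 to 146 in WT libraries, and the 8 macrophage genes to 110.4 to 176 in Tnfr1-/- libraries and 139.8 to 198 in WT libraries. The part of these cell types in the differences above was not tested beyond leaving out the libraries named.

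The deposited values are per transcript. The genes have 197 transcripts in the table, of which 101 were tested and 8 were at an unadjusted limma p under 0.05, all lower in Tnfr1-/- colons. That is 7.92%, beside 8.26% of all 33276 transcripts tested, and the 8 became 16 with no filter on low values and 15 without WT replicate 4. None of the 101 passed adjustment, the smallest adjusted p being 0.394 (limma), whereas 0.00902% of all transcripts did. Among the 8 are the main coding transcripts of Acads, Decr1 and Etfb and 1 of 2 abundant coding transcripts of Bdh1. In the authors' deposited table, 10 of 123 tested transcripts of these genes, or 8.13%, had a p under 0.05, beside 4.39% of all 49810, and the smallest q was 0.75. The smallest p in the authors' deposited table, 0.0028, belonged to Acads.

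Other genes of the same pathways, 116 in 5 lists, lay near the background when pooled, but the lists differed in direction. A log2 fold change below 0 was found for 8 of 11 tested ketone body genes, 16 of 21 peroxisomal genes and 15 of 29 mitochondrial oxidation genes. It was found for 9 of 24 tested PPAR regulators and 9 of 24 tested PPAR targets, beside 52.1% of all tested genes. Of 107 tested, 5 were lower and 6 higher at an unadjusted limma p under 0.05, which is 10.3%, beside 9.37% of all genes, and their median log2 fold change was -0.02. None passed adjustment, and the smallest adjusted p was 0.393 (limma). Of 11 further ketone body genes tested, 1 was lower at that threshold. Slc16a3, a monocarboxylate carrier, ranged over 11.0 to 24.4 in Tnfr1-/- and 8.997 to 14.4 in WT colons, and Bdh2, a cytosolic relative of Bdh1, over 2.65 to 3.67 in Tnfr1-/- and 2.55 to 4.39 in WT colons. Neither was at an unadjusted p under 0.05.

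Of 29 further genes of mitochondrial oxidation, 1 was lower and 2 were higher at an unadjusted p under 0.05, with a median of -0.02. Acadsb, the dehydrogenase for short branched chains, ranged over 21.8 to 26.8 in Tnfr1-/- and 19.0 to 22.7 in WT colons (log2 fold change 0.19, limma adjusted p = 0.426). Crat, the carnitine acetyltransferase, ranged over 27.1 to 45.0 in Tnfr1-/- and 22.5 to 26.6 in WT colons (log2 fold change 0.30, limma adjusted p = 0.475), and its groups did not overlap. Its highest library was Tnfr1-/- replicate 2. Groups did not overlap for 2 of the 107 tested genes of the 5 lists, Crat and, below, Ncoa2, beside 1.49% of all tested genes. Mcat, the malonyltransferase of mitochondrial fatty acid synthesis, ranged over 11.3 to 13.5 in Tnfr1-/- and 13.3 to 15.9 in WT colons (log2 fold change -0.17, limma adjusted p = 0.433). Acsf3, the mitochondrial malonyl-CoA synthetase, came next in p, with a log2 fold change of -0.10.

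In the 21 further peroxisomal genes 2 were lower and 0 higher at an unadjusted p under 0.05 (limma), with a median of -0.08. With 1 library left out in turn the count ran over 0 to 6, the highest without WT replicate 4. The 2 were Eci3, an enoyl-CoA isomerase, at 4.13 to 7.34 in Tnfr1-/- and 5.94 to 7.45 in WT colons, and Acaa1b, the near copy of Acaa1a, at 11.6 to 20.3 in Tnfr1-/- and 14.5 to 34.8 in WT colons. Acot4, a thioesterase, and Abcd3, a peroxisomal fatty acid transporter, had log2 fold changes of -0.15 and -0.17. All 4 overlapped between groups.

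Among 24 tested regulators that work with or beside the PPARs, 1 was lower and 3 were higher at an unadjusted p under 0.05, with a median of 0.04. Nr1h3, the liver X receptor α, ranged over 7.63 to 11.0 in Tnfr1-/- and 10.7 to 13.5 in WT colons (log2 fold change -0.34, limma adjusted p = 0.404). The coactivators Ncoa2 and Ncoa3 had log2 fold changes of 0.13 and 0.18, and Nr1d1, a repressor of the circadian clock, 0.27. Ncoa2 was at 11.2 to 12.2 in Tnfr1-/- and 10.2 to 11.2 in WT colons, groups that met without overlap. Among 24 tested further PPAR targets 0 were lower and 1 was higher, with a median of 0.10. That gene was Abca1, the cholesterol exporter, at 3.97 to 5.88 in Tnfr1-/- and 3.27 to 4.78 in WT colons (log2 fold change 0.27, limma adjusted p = 0.522). Cideb and Plin4, of lipid droplets, and Txnip, a thioredoxin-binding protein induced by glucose, followed with log2 fold changes of -0.15, 0.30 and 0.17.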

How the data were processed

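Per the labels' protocols, total RNA was isolated from Trizol homogenates of dissected colons with a Direct-zol kit and made into strand-specific mRNA libraries, which gave single-end reads of 75 bases. The build mm10 and the tools kallisto, sleuth and CASAVA appear in the submitters' processing notes without versions. Repeated lines of a transcript were dropped from the deposited table, which left 113193 transcripts of 113991 lines. Per the file headers and the values, what the authors deposited is a signal of sleuth's kind: TPM corrected by 1 size factor for every library. The authors also deposited a p-value and a q-value per transcript from a test of their own, their deposited mean is on a natural log (ln) scale, and their deposited fold change is on a log2 scale.

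Values were summed per Ensembl gene (97 transcripts without a gene, 0.031% of abundance, were left out). Genes with a value of at least 1 in at least 5 libraries entered a two-sided limma test (limma 3.58.1 in R 4.3.3, eBayes with trend) of log2(value + 0.5), with Benjamini-Hochberg adjustment over 15079 genes and a call at an adjusted p under 0.05. Such fold changes understate those of low genes. The 4 ratios were differences of log2(value + 0.5) between genes within a library, compared by an exact permutation test. Depth was estimated from low values of single-transcript genes, by the scale on which the largest share lay no more than 0.02 from a whole number of reads: 51.6% to 53.2% came out whole, against 2.36% to 2.59% at a typical scale. Depths and read numbers are therefore estimates and cover counting error only. In simulated data with 200 changed genes among 15079, the test recovered 78.8% of 1.5-fold and 87.8% of 2-fold changes, with 6.21% false calls. The changed genes were drawn from the more abundant ones, and some were changed 4-fold. Simulated noise was independent between genes, whereas muscle and fat markers varied together between these libraries. These shares are therefore not the power of the test in these data. Tables and figures used Python 3.11.15, pandas 2.3.3, numpy 2.4.6, scipy 1.17.1 and matplotlib 3.10.9. Gene positions follow GENCODE M21, whose assembly GRCm38 is mm10.

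The 38 genes, the other lists, their roles and the tests were chosen with earlier results of these data known. Beyond the 38, the genes named are Tnfrsf1a, up to 4 tested genes with the smallest p in each of 5 pathway lists, and up to 3 markers with the highest mean in a cell type list; markers named for a value near 0, and Gm45233, were chosen after their values were seen. Some genes that the lists hold are counted but not reported here. Alternatives were quantile normalization, other filters and pseudocounts, columns rescaled to equal sums, a block by replicate number, sample quality weights, each library left out in turn, and, added after seeing the data, 3 sets of libraries left out and estimated reads per gene in place of abundance.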

Additional observations from a re-analysis of the deposited data

Results flagged for a closer look

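In 84 sets of libraries, each gene or ratio in each group, the gap of the highest or lowest library to its neighbour was compared with Dixon's 95% critical value, and 4 were above it, where chance gives about 4.2. Acaa2 was at 136 in Tnfr1-/- replicate 2, and its next Tnfr1-/- library was at 149. Ppara was at 9.57 in WT replicate 5, and its next WT library was at 6.98. Plin2 was at 151 in WT replicate 3, and its next WT library was at 139. The log2 ratio of Fabp1 to Fabp2 was -6.05 in WT replicate 3, and in the next WT library it was -6.88. The 0.5 added to each value is large beside Fabp1, so this is not a plain ratio. Tnfr1-/- replicate 2 and WT replicate 5 are among the libraries with most skeletal muscle RNA, whose part in these values was not tested.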

How the results depend on the processing

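No gene of the group was called in any of 23 other settings, and 26 of the 37 tested genes had the same sign in all of them. The number at an unadjusted p under 0.05, 12 as reported, was 8 to 14 when each library was left out in turn, 5 without Tnfr1-/- replicates 2 and 5 and WT replicate 5, and 7 without Tnfr1-/- replicates 4 and 6. The median log2 fold change, -0.11, was -0.0629 without WT replicates 1 and 2. It was -0.0771 without Tnfr1-/- replicates 2 and 5 and WT replicate 5, and -0.0823 without Tnfr1-/- replicates 4 and 6. The count of all genes called, 1, was 3 with sample quality weights, 2 with estimated reads and 1 to 2 with a library left out. Transcripts of the group at an unadjusted p under 0.05, 8 as reported, were 16 with no filter, 14 without WT replicates 1 and 2, and 7 to 15 with a library left out, the highest without WT replicate 4. The Bdh1 to Oxct1 ratio, with a difference of -0.19, gave -0.235 to -0.156 with a library left out and passed adjustment (exact permutation test, adjusted p = 0.0317) without Tnfr1-/- replicate 3. That library alone among the Tnfr1-/- libraries lay inside the WT range. Leaving it out separated the groups, which fixed the p at the smallest the test can give, so the pass is no added evidence. Whether the replicate numbers pair the libraries was not settled (correlations of same-numbered deviations -0.22 to 0.38 over 5 pairs, with 1 of 5 Tnfr1-/- and 3 of 5 WT libraries nearest their own number). The labels name no pairing. With the replicate block, which drops Tnfr1-/- replicate 6, 8 genes were at an unadjusted p under 0.05, 7 of them shared with the 12. Signs turned for the differences that follow, and the cause was not tested. Without Tnfr1-/- replicates 2 and 5 and WT replicate 5, log2 differences became -0.0991 for Acadm, -0.00203 for Etfdh, 0.0252 for Bdh2 and -0.0147 for the Hadha to Hadhb ratio. Without Tnfr1-/- replicates 4 and 6 they became -0.0975 for Acot1 and 0.0248 for Ppard. Without WT replicates 1 and 2 they became 0.134 for Acsl5, -0.153 for Acot1, -0.0629 for Eci2, 0.221 for Ppard, -0.0255 for Cd36, 0.0140 for Etfa, 0.0106 for Fabp2 and 0.0185 for the Pparg to Ppara ratio. With sample quality weights they became 0.0830 for Acsl5, -0.0510 for Acot1, -0.0566 for Eci2, 0.0867 for Ppard and -0.0272 for Cd36. The block gave -0.0292 for Acot1 and -0.00550 for Eci2. Quantile normalization and rescaled columns gave 0.00742 and 0.000821 for Acsl5, and estimated reads gave -0.0155 for Eci2, -0.0113 for Acadm and 0.0493 for Ppara. With a library left out, values spanned -0.0630 to 0.0531 (Acsl5), -0.0540 to 0.135 (Acot1), -0.0299 to 0.0588 (Eci2), -0.153 to 0.0584 (Ppard), -0.0417 to 0.0504 (Acadm), -0.0112 to 0.0665 (Plin2), -0.00514 to 0.0366 (Etfdh), -0.184 to 0.000545 (Pparg to Ppara ratio) and -0.0237 to 0.0737 (Hadha to Hadhb ratio). A count test on recovered reads was planned and not run, since too few values came out whole. Depth limits Fabp1, with 1 to 9 estimated reads per library.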
